A study of Homo sapiens with 6 samples.

Results

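The mitochondrial ribosomal protein genes were taken as the protein-coding genes whose symbols consist of MRPL or MRPS, a number and, for some, a letter A to C. There were 78 of them, 49 with an MRPL symbol (large subunit by name) and 29 with an MRPS symbol (small subunit by name), among 34834 genes with a quantified transcript and 19439 protein-coding genes. They lie on 21 chromosomes. The series holds 6 RNA-sequencing samples of SKOV3, an established human ovarian cancer cell line. In 3 samples the cells had received 50 nM of a pool of 4 siRNAs against the long non-coding RNA DNM3OS, and in 3 samples 50 nM of a pool of non-targeting siRNA. RNA was profiled 48 h after transfection from ribosomal RNA-depleted total RNA, and the comparison asks which transcripts differ when DNM3OS is knocked down. The level of DNM3OS itself was not analysed here, so the labels were taken as given. Nothing in the sources used here says whether replicates came from separate cultures, so p-values measure only the spread between these samples, which may be technical.

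Mitochondrial ribosomes translate the messenger RNAs of the mitochondrial genome, all of which encode subunits of the oxidative phosphorylation complexes. Their ribosomal RNAs come from the mitochondrial genome, whereas every one of their proteins is encoded in the nucleus, made on cytosolic ribosomes and imported. Cancer cell lines, like other dividing cells, express these genes broadly. A few names do not match the place of the protein: MRPS30 and MRPS18A are found in the large subunit in structures of the human mitoribosome, and MRPS36 was reassigned to the 2-oxoglutarate dehydrogenase complex. Groups below follow the symbols.

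Per sample, 1523156 to 1868461 estimated counts fell on annotated genes. A level is given in TPM, the transcript abundance that corrects for transcript length, and a comparison between samples in CPM, counts relative to library size scaled by edgeR's trimmed mean of M values (TMM). In a single sample, 3 counts corresponded to 1.40 to 2.11 CPM. Knockdown sample 1 stood apart from the other 5. Its scaling factor was 1.18 against 0.927 to 1.02, and its 10 most abundant genes took 33.0% of gene counts against 38.9% to 43.1%. Of the markers checked, KRT8 (3786 TPM), ERBB2 (316 TPM), KRT18 (69.8 TPM) and EPCAM (19.9 TPM), known from this epithelial line, were all detected. Among markers of other cell types the blood gene PTPRC stood at 80.5 TPM and the endothelial gene PECAM1 at 9.95 TPM, while CD3E (0.472 TPM) and VWF (0.0139 TPM) were near 0. What those reads came from was not tested.

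The members were expressed at moderate levels with a long upper tail. Their median was 13.1 TPM, against 6.53 TPM for all protein-coding genes. Of the 78 members, 48 reached 10 TPM, 5 reached 100 TPM and 1 lay below 1 TPM. MRPS members had a median of 22.5 TPM and MRPL members 10.3 TPM. In all, the members took 0.187% to 0.210% of gene counts in a sample, and their summed TPM ranged from 2485 to 2677. The 8 most abundant members held 36.0% of the members' counts, and MRPS18C alone held 18.6%.

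**Figure D1:**
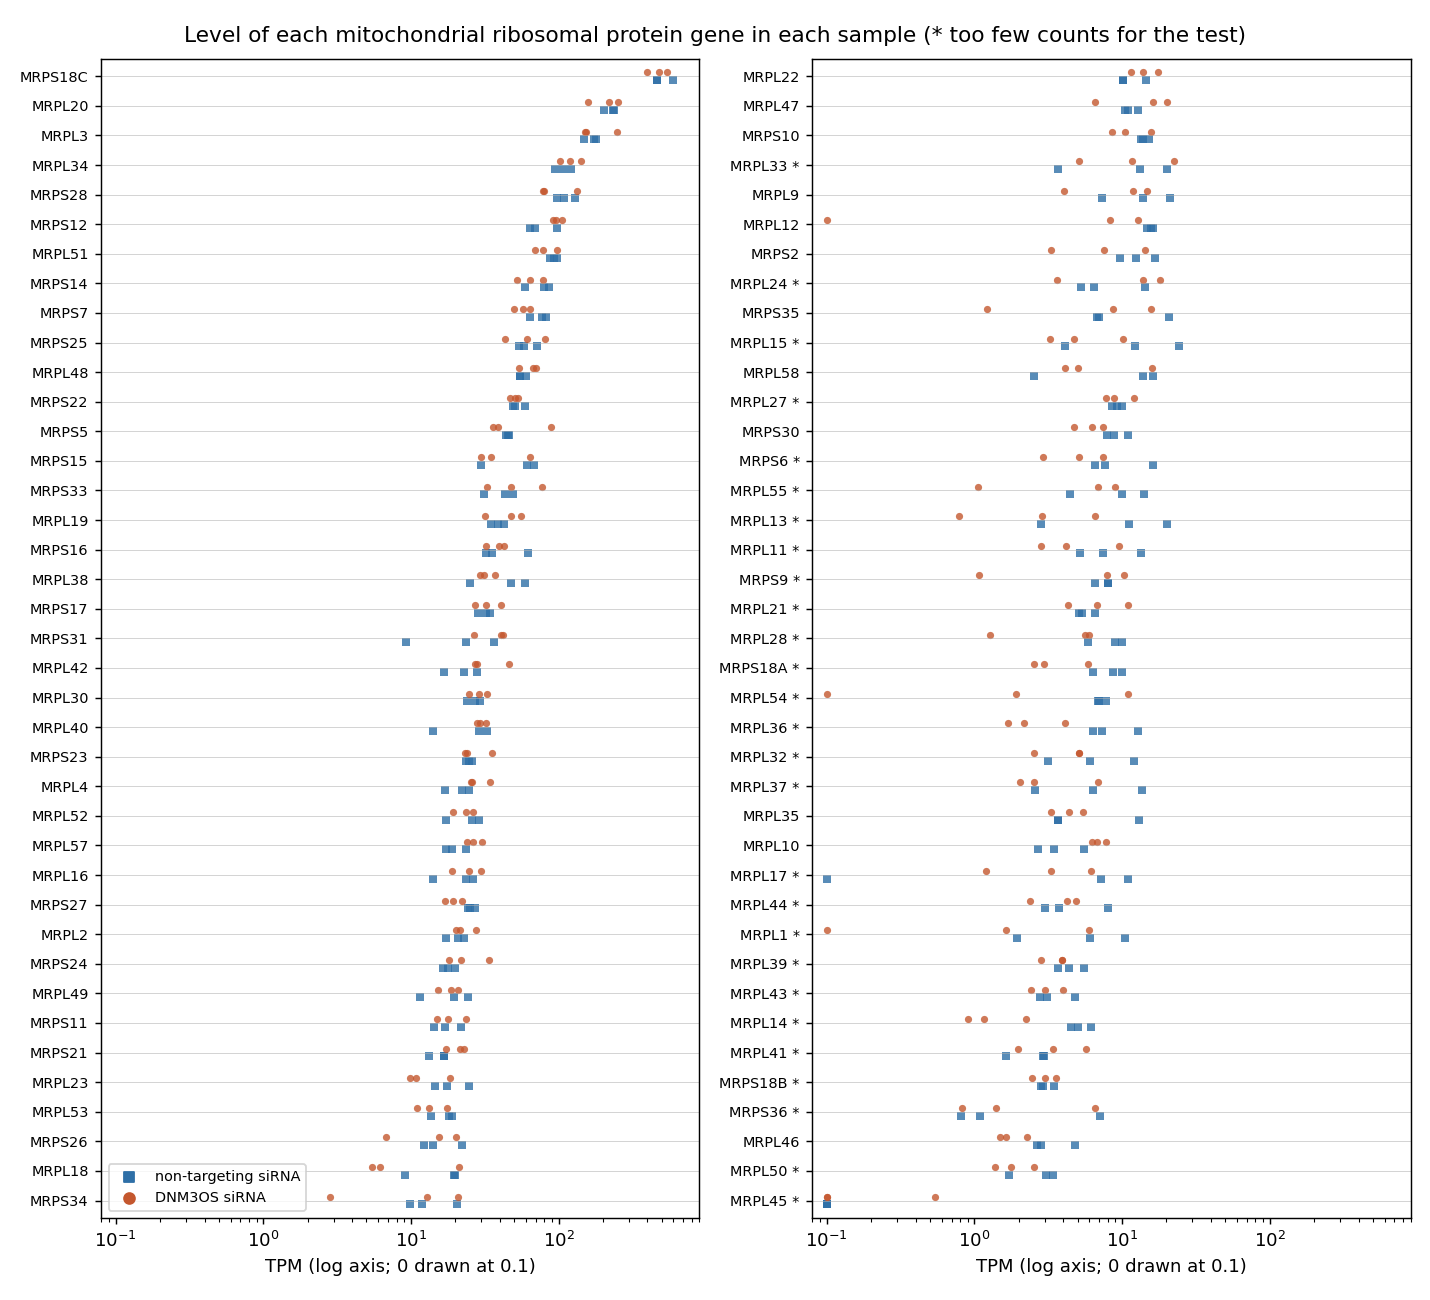
TPM (log axis) of each of the 78 members in each of the 3 control samples (squares) and the 3 knockdown samples (circles), ordered by mean level, with 0 drawn at 0.1 and an asterisk on members with too few counts for the test. The order runs from MRPS18C at 488 TPM to MRPL45 at 0.0907 TPM, and for most members the control and knockdown points intermingle.

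MRPS18C, which encodes a small subunit protein, was the most abundant member, at 488 TPM. This placed it at the 99.5th percentile of protein-coding genes. Knockdown samples had 395, 477 and 541 TPM, and controls 462, 592 and 464 TPM. The groups overlapped, and knockdown sample 1 was the lowest of the 6. Its nearest paralogs were far lower. MRPS18A stood at 6.07 TPM, with 2.52, 2.97 and 5.93 TPM in knockdown and 6.32, 8.69 and 9.99 TPM in control samples. MRPS18B stood at 3.03 TPM, with 2.46, 3.56 and 3.004 TPM in knockdown and 2.90, 2.83 and 3.44 TPM in control samples. Neither paralog had enough counts for the test, with at most 11 counts in any sample. Because the TPM values of MRPS18A in knockdown all lay below those of the controls while its scaled CPM values overlapped, no order of the groups is drawn from it.

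The promoters of these paralogs are shown because the genes are related in sequence and their measured levels differ widely. The levels of MRPS18C and MRPS18A are uncertain because both overlap exons of opposite-strand genes, as given below. Transcripts outside the gene annotation used here were left out of all levels. Whether they include copies of these paralogs, MRPS18B among them, was not tested. The windows hold 250 bases before and 50 after the start of the gene from RefSeq on GRCh38.p14. They lie at chr6:43687742-43688041 on the minus strand for MRPS18A, chr6:30617590-30617889 on the plus strand for MRPS18B and chr4:83455808-83456107 on the plus strand for MRPS18C. Capitals mark matches, on either strand, to the letters CCGGAAG (ETS family), GCATGCGC (NRF1) and AAGATGGCG (YY1).
MRPS18A: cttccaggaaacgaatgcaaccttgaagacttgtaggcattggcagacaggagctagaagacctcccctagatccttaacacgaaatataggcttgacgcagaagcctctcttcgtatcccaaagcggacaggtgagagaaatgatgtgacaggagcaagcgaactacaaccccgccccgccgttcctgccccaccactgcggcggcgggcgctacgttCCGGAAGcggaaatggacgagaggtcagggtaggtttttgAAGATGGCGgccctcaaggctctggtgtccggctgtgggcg
MRPS18B: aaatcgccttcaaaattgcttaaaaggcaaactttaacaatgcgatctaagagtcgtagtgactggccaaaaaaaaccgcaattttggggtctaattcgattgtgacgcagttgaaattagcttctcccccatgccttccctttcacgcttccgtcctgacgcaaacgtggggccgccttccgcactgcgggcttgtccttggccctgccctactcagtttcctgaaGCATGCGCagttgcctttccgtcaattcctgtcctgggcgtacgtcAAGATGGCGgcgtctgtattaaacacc
MRPS18C: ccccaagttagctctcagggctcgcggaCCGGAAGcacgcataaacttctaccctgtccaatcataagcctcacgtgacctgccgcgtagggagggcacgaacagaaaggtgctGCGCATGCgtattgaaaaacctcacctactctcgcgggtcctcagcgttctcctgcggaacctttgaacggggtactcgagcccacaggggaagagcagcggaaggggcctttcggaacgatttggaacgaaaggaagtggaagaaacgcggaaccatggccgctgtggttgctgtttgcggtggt
The ETS letters of MRPS18A began 31 bases before the start, on the gene's own strand, and its YY1 letters began 10 bases after it. MRPS18B held the NRF1 letters 23 bases before the start and the YY1 letters 24 bases after it. In MRPS18C the ETS letters lay 222 bases before the start and the NRF1 letters, on the opposite strand, 136 bases before it. A match is a description of letters and shows no binding.

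Promoter windows were found for 69 of the 78 members. The ETS letters were in 29 of the 69 (42.0%), against 14.6% of 15068 protein-coding promoters of the same length and 10.7% of all 27305 promoters. The YY1 letters were in 13 members (18.8%) against 2.84% of protein-coding promoters. The NRF1 letters were in 6 members (8.70%) against 4.33%, and the TATA box letters TATAAA in 2 members (2.90%) against 9.39%. At least 1 of the ETS, NRF1 and YY1 motifs was present in 39 members, and no ETS match shared letters with a YY1 match. Of the 39 ETS matches, 18 lay on the gene's strand and 21 on the other, and 28 began within 60 bases of the start. Of the 14 YY1 matches, 12 lay on the gene's strand, and the median position of all 14 was 9.5 bases after the start. Base composition was similar, with a median GC content of 60.3% in members and 63.0% in protein-coding promoters. Members with the ETS letters had a median of 23.6 TPM and those without 10.5 TPM, whereas members with the YY1 letters had 7.69 TPM and those without 16.8 TPM. These shares and levels are descriptions across genes, which are not independent replicates.

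Behind MRPS18C came MRPL20 at 218 TPM, MRPL3 at 176 TPM, MRPL34 at 115 TPM, MRPS28 at 105 TPM, MRPS12 at 87.2 TPM, MRPL51 at 87.1 TPM and MRPS14 at 69.8 TPM. MRPL3 and MRPL34 are large subunit proteins conserved from bacteria, and MRPS12 belongs to the decoding site of the small subunit. MRPL20 measured 157, 221 and 255 TPM in knockdown and 235, 202 and 239 TPM in control samples. MRPL3 measured 248, 151 and 154 TPM in knockdown and 148, 180 and 175 TPM in control samples. In both genes knockdown sample 1 was at the edge of the 6 values, lowest for MRPL20 and highest for MRPL3, and the groups overlapped. Which transcripts carried these levels differed. For MRPL20, 79.1% of counts were on its most abundant protein-coding transcript. For MRPL3, 89.7% of counts were on a transcript annotated as retained intron, so its level mostly does not count the coding messenger RNA. Over all members, 69.0% of counts were on protein-coding transcripts, 17.7% on retained-intron transcripts, 9.71% on transcripts without a defined coding sequence and 3.62% on transcripts marked for nonsense-mediated decay. For all protein-coding genes these shares were 66.2%, 12.4%, 10.5% and 10.8%.

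Members had an exon under an opposite-strand exon about as often as all protein-coding genes did (38.5% against 35.2%). The most abundant members were often among these. The library kit keeps the strand of a read, but the strand setting of the quantification was not given in the sources used here, so reads of overlapping genes on opposite strands cannot be told apart in these values. For 30 members at least 1 exon base lay under an exon of an opposite-strand gene, 6 lay only under an intron of one, and 42 had no opposite-strand gene over an exon. The first group had a median of 20.1 TPM and held 55.4% of the members' counts. Among all protein-coding genes that group held more, 67.2% of counts. The second group of members had a median of 20.1 TPM and the third 9.91 TPM. All protein-coding genes had medians of 15.5, 5.14 and 3.56 TPM in the same order, so the higher level beside an opposite-strand exon was also present outside the members.

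**Figure D2:**
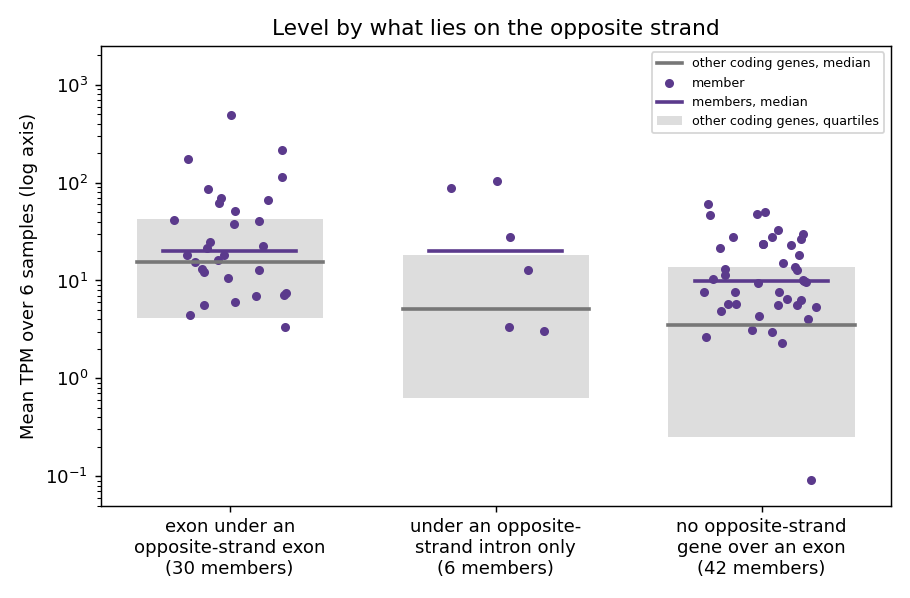
Mean TPM over the 6 samples (log axis) by what lies on the opposite strand, with each member as a point, the members' median as a dark line, and the median and quartiles of the other protein-coding genes as a grey line and box. The members' medians were 20.1, 20.1 and 9.91 TPM from left to right.

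MRPS18C, at chromosome 4 bases 83455932 to 83469735 on the plus strand of GRCh38, is the main case. Of its 4866 exon bases, 1956 lie under exons of ABRAXAS1, a gene of a DNA repair complex, and 91.5% of its counts were on transcripts with such bases. MRPL20 overlaps MRPL20-AS1 by 138 of 2767 exon bases, with 83.6% of its counts on such transcripts. MRPL34 lies over ABHD8 (60.02% of counts), MRPL51 over NCAPD2, a condensin subunit (64.3%), and MRPS14 over CACYBP (44.5%). By share of exon bases under an opposite-strand exon, the highest members were MRPL53 at 79.4%, MRPS25 at 59.9% (NR2C2), MRPS18A at 50.9% (RSPH9), MRPS22 at 50.8% (COPB2) and MRPS18C at 40.2% (ABRAXAS1). MRPL53 stood at 15.4 TPM, MRPS25 at 61.3 TPM and MRPS22 at 51.6 TPM. For MRPS25 every count, and for MRPS22 98.6%, was on transcripts with such bases. MRPS25 had the closest samples of these, with 107, 99.95 and 103 CPM in knockdown and 111, 100.2 and 100 CPM in control samples.

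Several members start head to head with a neighbour. A gene on the opposite strand started within 1000 bases of the start of 33 of the 78 members (42.3%), against 25.6% of protein-coding genes. HELQ starts 77 bases from MRPS18C. SARS2, which encodes the mitochondrial seryl-tRNA synthetase, starts 181 bases from MRPS12, and SKA3 starts 106 bases from MRPL57.

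No member passed the test on DNM3OS knockdown. Of the 78 members, 51 had enough counts to be tested, 27 MRPL and 24 MRPS, and 27 did not. With edgeR's exact test across all 11814 tested genes, 0 members were called lower and 0 higher at an adjusted p below 0.05 and at least 2-fold. The background was as low, with 1 gene called lower (0.00846%) and 0 called higher (0.0%). The gene was BORCS7-ASMT, named here after its values were seen. None of the 51 members had an unadjusted p below 0.05 in edgeR's exact test, in its quasi-likelihood test or in DESeq2. The smallest p of edgeR's exact test was 0.0803, for MRPL57. Few genes reached that level at all, 345 of the 11814 tested in edgeR's exact test, so 0 of 51 is not read as particular to the members. The members were split evenly, 26 with a lower and 25 with a higher estimate. Their log2 fold changes had a median of -0.0021 against 0.0042 for all tested genes. MRPL members had a median of 0.02 and MRPS members of -0.02 on the same log2 scale. The standard error of a member's log2 fold change had a median of 0.25 and ranged from 0.05 to 0.96, so small changes could not be told from 0 for most members. Changes of 2-fold may also go uncalled: MRPL12, estimated at -1.13, had p = 0.112 in edgeR's exact test. No detection limit was worked out for the members. The common biological coefficient of variation was 0.232.

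**Figure D3:**
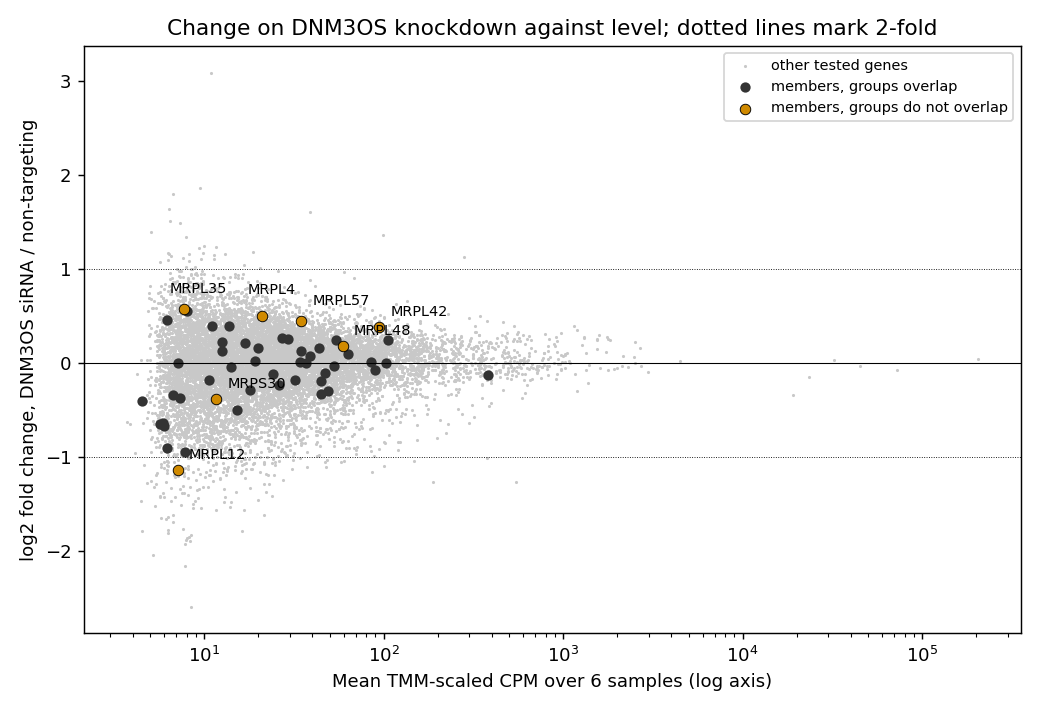
Log2 fold change of knockdown over control against mean CPM (log axis) for all 11814 tested genes (grey), the 44 tested members whose groups overlap (black) and the 7 whose groups do not overlap (orange, named). The members lie in the middle of the cloud, and 50 of the 51 stay within the dotted 2-fold lines.

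The share of gene counts on the members as a whole differed between the groups by less than its spread between samples. In knockdown it was 0.210%, 0.187% and 0.191%, against 0.194%, 0.204% and 0.194% for non-targeting siRNA. The means were 0.196% ± 0.0126 (SD, n = 3) and 0.197% ± 0.00577 (SD, n = 3), and the difference of -0.00109 percentage points gave p = 0.8 in a two-sided exact permutation test. With 3 samples against 3 the smallest p this test can give is 0.1. The 30 members with an exon under an opposite-strand exon took 0.102%, 0.105% and 0.110% in knockdown and 0.110%, 0.116% and 0.111% in control samples. Each knockdown value lay below each control value, with an exact permutation p of 0.1. The separation was not present without MRPS18C, which was left out after the values were seen. The difference then went from -0.0068 to -0.0030 percentage points. Without MRPS18C the other 29 took 0.0742%, 0.0685% and 0.0691% in knockdown and 0.0757%, 0.0703% and 0.0750% in control samples, which overlap (exact permutation p = 0.2). The other protein-coding genes with such an exon took 60.5%, 66.5% and 65.1% against 64.7%, 64.4% and 64.6%, with knockdown sample 1 the lowest and knockdown samples 2 and 3 the highest. For the 42 members without opposite-strand overlap of an exon the shares were 0.0972%, 0.0706% and 0.0709% in knockdown and 0.0737%, 0.0761% and 0.0731% in control samples. There knockdown sample 1 was the highest of the 6 and knockdown samples 2 and 3 were the lowest (exact permutation p = 1).

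Of the 51 tested members, 7 had groups that did not overlap in CPM. Only 2 of them were lower in every knockdown sample, 3.92% of tested members against 3.56% of all tested genes. The other 5 were higher in every knockdown sample, 9.80% against 4.42% of all tested genes, and all 5 were MRPL genes. Adjusted p was 1 for each of the 7 in edgeR's exact test. These counts moved with the scaling. Scaled by library size only, 4 were lower and 3 higher, against 4.34% and 2.85% of all genes. Without knockdown sample 1 there were 6 lower and 9 higher, against 8.07% and 10.1% of all genes.

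**Figure D4:**
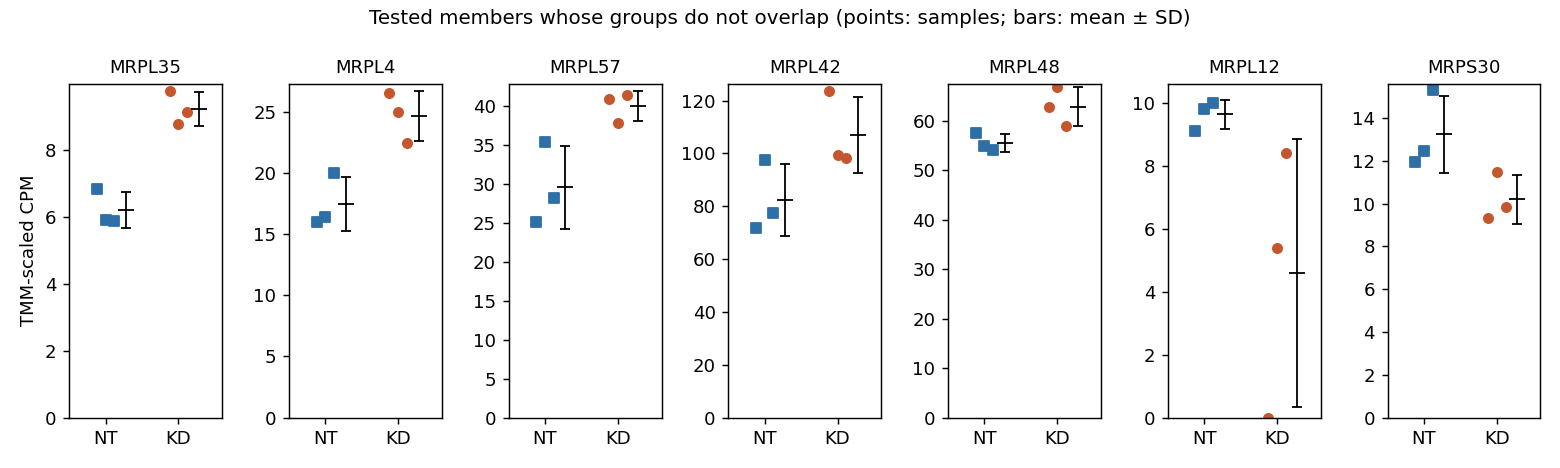
CPM of the 7 tested members whose groups do not overlap, with each sample as a point beside the mean and SD of its group (n = 3) and axes starting at 0. The knockdown points (KD) lie above the control points (NT) in the first 5 panels and below them for MRPL12 and MRPS30.

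MRPL4, a large subunit protein of the exit tunnel, measured 26.5, 24.99 and 22.5 CPM in knockdown and 15.95, 16.4 and 20.0 CPM in control samples. Its log2 fold change was 0.50 ± 0.12 (SE), with p = 0.0840 in edgeR's exact test. A retained-intron transcript held 75.7% of its counts, and 87.2% of its counts were on transcripts under an opposite-strand exon. Its protein-coding transcripts had 6.44, 6.23 and 13 estimated counts in knockdown and 6.88, 8.32 and 11.1 in control samples, and its retained-intron transcripts 50.8, 30.4 and 19.3 against 20.9, 17.2 and 22.8. Both sets overlapped between the groups before scaling. Scaled values by transcript type were not worked out, so these counts do not show which type carries the separation in CPM. MRPL57 had the smallest p. It measured 40.9, 37.8 and 41.4 CPM in knockdown and 25.1, 35.4 and 28.2 CPM in control samples, a log2 fold change of 0.44 ± 0.15 (SE).

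MRPL42 measured 124, 99.3 and 98.2 CPM in knockdown and 71.8, 97.6 and 77.7 CPM in control samples, a log2 fold change of 0.39 ± 0.17 (SE). The highest control sample and the lowest knockdown sample nearly touched. Pseudogenes of MRPL42 also carried counts. MRPL42P1 had 160, 56 and 61 counts in knockdown and 71, 100 and 62 in control samples, and MRPL42P4 had 47, 43 and 24 against 76, 77 and 74. Reads of near-identical copies can be split between the gene and these loci, so the level of MRPL42 is uncertain. In addition, 91.6% of the counts of MRPL42 were on 1 transcript of 15582 bases. Of its 16368 exon bases, 282 are shared with RN7SL737P on the same strand.

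MRPL48 measured 62.8, 66.9 and 58.9 CPM in knockdown and 57.5, 55.0 and 54.1 CPM in control samples. Its log2 fold change was 0.18 ± 0.06 (SE), with p = 0.418 in edgeR's exact test. The gap between the groups was narrow. MRPL35 had few counts, 21, 13 and 13 in knockdown and 12, 9 and 10 in control samples. Its log2 fold change was 0.57 ± 0.07 (SE), with p = 0.168 in edgeR's exact test. The SE reflects only the closeness of 3 values per group and leaves out the counting error of so few counts. With counts rebuilt from TPM and transcript length the estimate was -0.68, so its direction depends on how its transcripts are summed. In TPM it measured 4.36, 5.48 and 3.30 in knockdown and 13.1, 3.68 and 3.67 in control samples, with control sample 1 apart from the rest.

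Of the 2 lower members, MRPL12 is the stalk protein that also binds the mitochondrial RNA polymerase. It had 0, 8 and 12 counts in knockdown and 16, 15 and 17 in control samples. The fitted log2 fold change was -1.13 ± 0.93 (SE), with p = 0.112 in edgeR's exact test. It was -0.47 without knockdown sample 1, the sample at 0, and -1.98 without knockdown sample 3. Of its 1009 exon bases, 701 are shared with another gene on the same strand, so its counts can be split between them. MRPS30 measured 9.30, 11.5 and 9.82 CPM in knockdown and 11.96, 12.4 and 15.3 CPM in control samples, a log2 fold change of -0.38 ± 0.13 (SE, p = 0.304 in edgeR's exact test).

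The promoters of MRPL42 and MRPS30 are shown because both carry the YY1 letters just after the start, while their groups separated in opposite directions. They lie at chr12:93467264-93467563 and chr5:44808697-44808996, both on the plus strand of GRCh38.p14 in RefSeq, with capitals as above.
MRPL42: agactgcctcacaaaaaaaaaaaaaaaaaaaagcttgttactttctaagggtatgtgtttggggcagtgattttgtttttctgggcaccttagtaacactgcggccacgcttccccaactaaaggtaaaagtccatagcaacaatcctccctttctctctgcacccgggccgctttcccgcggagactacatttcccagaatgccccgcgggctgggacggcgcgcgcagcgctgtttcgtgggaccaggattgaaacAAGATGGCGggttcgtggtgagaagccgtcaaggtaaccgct
MRPS30: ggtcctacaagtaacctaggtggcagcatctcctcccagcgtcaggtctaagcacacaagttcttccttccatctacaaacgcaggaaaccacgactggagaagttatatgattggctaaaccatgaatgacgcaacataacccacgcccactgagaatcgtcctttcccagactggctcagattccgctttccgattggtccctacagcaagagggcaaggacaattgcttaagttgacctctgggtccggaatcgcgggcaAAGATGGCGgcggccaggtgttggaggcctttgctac
The YY1 letters began 9 bases after the start in MRPL42 and 14 bases after it in MRPS30, on the gene's own strand in both.

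The members chosen for their role otherwise overlapped between the groups. MRPL10, which anchors the stalk that MRPL12 forms, had 14, 9 and 13 counts in knockdown and 13, 5 and 8 in control samples, a log2 fold change of 0.46 ± 0.32 (SE). MRPL11, at the base of the stalk, had too few counts for the test (3, 7 and 2 against 8, 2 and 14). MRPL58, a peptidyl-tRNA hydrolase that rescues stalled ribosomes, had 3, 3 and 12 counts in knockdown and 11, 1 and 14 in control samples. Its log2 fold change of -0.41 ± 0.94 (SE) turned to 0.04 without knockdown sample 1. MRPL44, with an RNase III fold, had 5, 8 and 8 counts against 16, 5 and 7 and was not tested. MRPS36 had 1 to 4 counts in every sample.

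MRPS12 measured 44.2, 68.2 and 64.6 CPM in knockdown and 41.0, 62.2 and 45.3 CPM in control samples, a log2 fold change of 0.25 ± 0.26 (SE). MRPS7, a protein of the small subunit head, measured 36.8, 42.6 and 47.0 CPM against 45.6, 45.2 and 52.4 CPM, a log2 fold change of -0.19 ± 0.12 (SE). MRPS18C, at 242, 401 and 446 CPM against 359, 459 and 371 CPM, had a log2 fold change of -0.13 ± 0.29 (SE). Without knockdown sample 1 its estimate was 0.11. In all 3 the samples of each group spread as widely as the groups differed.

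MRPL45, which anchors the ribosome to the inner membrane, was all but undetected, with 1 count in knockdown sample 3 and 0 in the other 5 samples. A count of 0 allows up to 3 counts, by counting error only. Its pseudogene MRPL45P2 had 53, 25 and 33 counts in knockdown and 31, 30 and 25 in control samples. Of 81 annotated pseudogenes of members, 80 were quantified and together held 2512 counts, 12.6% of the members' own. MRPL49P2 held the most, with 535 counts over the 6 samples, whereas MRPL49 itself had 27, 19 and 24 counts in knockdown and 33, 17 and 22 in control samples.

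Members of low count were lower in the knockdown samples on average, and their order over the samples was that of the cytosolic ribosomal protein genes. The 27 members that were not tested had mean counts of 0.15 to 8.76, with no single value above 17. Of them, 22 had a lower mean in knockdown. The share of other genes of similar level with a lower mean was not worked out, here or for the groups by level below. Together they took 0.00407%, 0.00719% and 0.00758% of gene counts in knockdown and 0.0114%, 0.00616% and 0.0112% in control samples. Knockdown sample 1 and control sample 2 were the lowest, and control samples 1 and 3 the highest (exact permutation p = 0.3). The 86 cytosolic ribosomal protein genes took 0.232%, 0.384% and 0.397% in knockdown and 0.543%, 0.321% and 0.524% in control samples (exact permutation p = 0.3). The 6 samples stood in the same order by both shares, from knockdown 1 over control 2, knockdown 2, knockdown 3 and control 3 to control 1. Of 79 cytosolic ribosomal protein genes tested, 74 had a lower estimate in knockdown, with a median log2 fold change of -0.58 and 0 called. What sets this order was not tested.

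**Figure D5:**
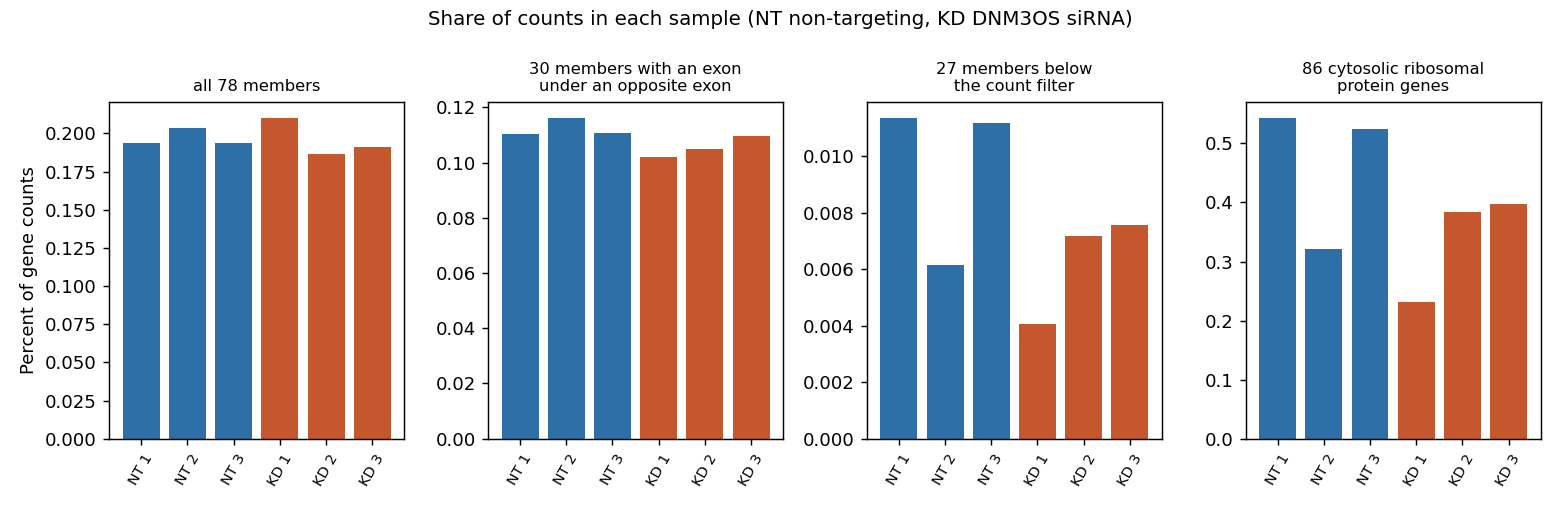
Percent of gene counts in each control (NT) and knockdown (KD) sample, with axes starting at 0, for all 78 members, the 30 with an exon under an opposite-strand exon, the 27 below the count filter and the 86 cytosolic ribosomal protein genes. The last 2 panels rank the 6 samples alike, with knockdown 1 lowest and control 1 highest, and the first panel is nearly level.

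By level, the 26 least abundant members (0.0907 to 7.66 TPM) summed to 49.3, 82.4 and 87.7 CPM in knockdown and 121, 65.5 and 112 CPM in control samples, and for 21 of these the knockdown mean was lower. The 26 most abundant (23.6 to 488 TPM) summed to 1517, 1630 and 1651 CPM in knockdown and 1563, 1657 and 1558 CPM in control samples, with 11 lower. Knockdown sample 1 alone held the lowest value of 37 of the 78 members, and control sample 2 of 13. Among untested members, only MRPL14 (1, 2 and 1 counts against 5, 4 and 6) and MRPL36 (1, 2 and 1 against 4, 3 and 7) did not overlap, both lower in knockdown. They are 7.41% of the untested members, against 2.99% of 10390 untested genes with mean counts in the same range, and 0 members were higher against 3.82%. They are named because their groups did not overlap, and all their knockdown values are within the 3 counts that a count of 0 allows. The median log2 fold change therefore depended on the count filter. With all 78 members it was -0.16, with 46 lower, while the median of all 22748 genes in that fit was 0.0045, with 11265 lower.

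The genes around the mitoribosome were examined as lists. None of the lists had a gene called in either direction. Of 5 mitoribosome proteins whose symbols fall outside the rule, 4 were tested, 3 with a lower and 1 with a higher estimate. AURKAIP1, a small subunit protein, had 1, 7 and 11 counts in knockdown and 20, 10 and 24 in control samples, a log2 fold change of -1.38 ± 0.79 (SE) with an unadjusted p of 0.0428 and an adjusted p of 1 in edgeR's exact test. Its groups overlapped, and 345 of all 11814 tested genes had an unadjusted p below 0.05 in that test. GADD45GIP1, a large subunit protein at 525 TPM, exceeded every member in level.

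Of 13 translation factors, 12 were tested, with 8 lower and 4 higher and a median log2 fold change of -0.03. TUFM, the mitochondrial elongation factor Tu, had 4, 18 and 26 counts in knockdown and 24, 9 and 27 in control samples. Of 26 genes for ribosome assembly and rRNA modification, 16 were tested, with 6 lower and 10 higher and a median of 0.19. Within them TRUB2, a pseudouridine synthase, was higher in every knockdown sample, as were 4.42% of all tested genes. Its log2 fold change was 0.18 ± 0.08 (SE), with p = 0.387 in edgeR's exact test. RCC1L, an assembly factor, had 110, 129 and 65 counts in knockdown and 165, 148 and 146 in control samples, a log2 fold change of -0.59 ± 0.29 (SE) with an unadjusted p of 0.0337 and an adjusted p of 1 in edgeR's exact test. Its groups overlapped in CPM, and the same background of 345 in 11814 genes with an unadjusted p below 0.05 applies. Of 19 aminoacyl-tRNA synthetases, 12 were tested, with 8 lower and 4 higher and a median of -0.14. TARS2, the threonyl-tRNA synthetase, was higher in every knockdown sample, at 0.20 ± 0.09 (SE) on the log2 scale (p = 0.401 in edgeR's exact test). All 3 tested genes of mitochondrial transcription had lower estimates, with a median of -0.33. TEFM, the transcription elongation factor, was lower in every knockdown sample on the CPM scale, as were 3.56% of all tested genes. It had 282, 227 and 197 counts against 285, 298 and 294. Its log2 fold change was -0.33 ± 0.10 (SE), with p = 0.126 in edgeR's exact test. The 13 mitochondrially encoded messenger RNAs, the templates of the mitoribosome, were all tested. Of them 2 were lower and 11 higher, with a median of 0.15 and a range from -0.13 (MT-ND1) to 0.31 (MT-ND6). The groups overlapped in CPM for all 13. MT-ND6, with an SE of 0.27, had 355, 161 and 135 counts in knockdown and 146, 168 and 180 in control samples, knockdown sample 1 being the highest. The median of all tested genes was 0.0042, and the count of called genes in each of these lists, 0, stood beside a background of 1 in 11814.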

How the data were processed

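Libraries were stranded total RNA depleted of ribosomal RNA. Per the labels and the methods, the authors quantified paired reads with kallisto 0.43.0 against Ensembl GRCh38 transcripts. The strand option, bias correction and Ensembl release were not given in the sources used here. The deposited values are estimated counts and TPM per transcript, 1610937 to 1995888 estimated counts per sample. Here 155518 of 173259 transcripts were assigned to 34834 genes of GENCODE release 44, and 4.79% to 6.38% of counts fell outside it. The estimated counts of a gene's transcripts were added and rounded. Genes were filtered with filterByExpr (minimum count 10), scaled by TMM and tested with edgeR 4.0.16 (R 4.3.3), using the exact test with Benjamini-Hochberg adjustment over all 11814 genes tested. A call needed at least 2-fold and an adjusted p below 0.05. Standard errors are those of the difference of mean log2 CPM (prior count 2). They come from 3 values per group and are not those behind the p-values of the exact test. Shares of counts were compared by two-sided exact permutation tests. Floors of 3 counts cover counting error only. Alternatives were the quasi-likelihood test, with and without a replicate block, DESeq2 1.42.0, other scalings, filters and ways of summing, and leaving out each sample. The scripts were tested on simulated data.

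Named were members past the threshold, tested members whose groups did not overlap, the 8 of highest mean TPM, a set chosen by role, and the 5 with most exon bases under an opposite-strand exon. Other names are stated as such in the text. The members and lists were chosen with earlier results of these data known. A further marker is not reported here.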

Additional observations from a re-analysis of the deposited data

How the results depend on the processing

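No alternative called a member gene in either direction. An unadjusted p below 0.05 in edgeR's exact test was reached by 5 of 55 tested members without control sample 2. It was reached by 1 member without a filter, with the 1 CPM filter and without each knockdown sample. In the other alternatives that used the exact test it was reached by 0. The 2 quasi-likelihood fits and DESeq2, each with its own test, also had 0 members with an unadjusted p below 0.05. The share of all genes in those fits was not computed. The number of all genes called lower, 1, became 0 with the quasi-likelihood test, the quasi-likelihood test with replicate block and DESeq2, 2 without a count filter or with a filter of 1 CPM in 3 samples, 4 with length-scaled TPM counts, 3 with protein_coding transcripts only, and 0 to 3 when each sample was left out. The number called higher, 0, became 1 with library size only, 2 with length-scaled TPM counts, 2 with protein_coding transcripts only, and 0 to 1 when each sample was left out. Samples of the same replicate number did not deviate together (correlations of -0.40, -0.34 and 0.23), so the numbers were not taken to pair them, and the replicate block gave a member median of -0.0021. The members' median log2 fold change, -0.0021, was -0.16 without a filter and -0.19 with the 1 CPM filter, both with more low-count members, and -0.11 to 0.027 when each sample was left out (lowest without control sample 2). The difference in the members' share of counts, -0.0011 percentage points, was 0.0057 without members under an opposite-strand exon and -0.0083 to 0.0036 when each sample was left out. Of 176 fold changes of 12 named members under alternatives, 3 reversed and 0 passed the threshold. The reversed ones were MRPL35 (-0.68 with length-scaled TPM counts), and, without knockdown sample 1, MRPL58 (0.036) and MRPS18C (0.11). Over the samples left out, MRPL12 ranged from -1.98 to -0.47, MRPL58 from -1.56 to 0.036 and MRPS18C from -0.31 to 0.11. The cause was not tested. Members not overlapping, 2 lower and 5 higher, became 4 and 3 with library size only and 6 and 9 without knockdown sample 1, and the share difference of members under an opposite-strand exon, -0.0068, was -0.0030 without MRPS18C, all alternatives added after seeing the data. At 1523156 to 1868461 gene counts a sample, 27 of 78 members could not be tested.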
